A study of Mus musculus with 18 samples.

Results

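The response to 2 Gy of gamma irradiation was followed in the bone marrow of female C3H mice of 2 ages, and the question examined here is which transcripts responded differently at 8 weeks and at 1 week of age, 24 h after exposure. Of the 18 arrays of the series, 12 carry this comparison, 3 in each of 4 groups: 8-week-old mice 24 h after 2 Gy, 8-week-old unirradiated mice, 1-week-old mice 24 h after 2 Gy, and 1-week-old unirradiated mice. The remaining 6 arrays, taken 6 h after 2 Gy at each age, entered the fit to estimate the spread and are drawn on once at the end. Gamma rays were given at 0.6 Gy per minute. The title of the series names progenitor survival and chemokine gene induction as its subjects. All mice were C3H females with no engineered allele or drug named in the labels. The RNA was total RNA of unsorted marrow, so each value is a mixture over all marrow cells.

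Bone marrow makes blood cells from stem and progenitor cells that lie among stromal cells, bone-lining cells and sinusoidal vessels, and it also houses B-cell precursors, macrophages and recirculating lymphocytes. Ionizing radiation breaks DNA, stabilizes the transcription factor p53 and removes sensitive cells, B-cell precursors above all, within hours to days. Macrophages take up the dying cells, and interferons and chemokines are signals by which surviving cells call in and alert others. In the mouse, the marrow of the first weeks after birth is still expanding within growing bone and holds fewer mature lymphocytes than adult marrow.

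A response is the log2 level in irradiated marrow minus that in unirradiated marrow of the same age, and the age difference in response is the 8-week response minus the 1-week response, so a positive value means that the irradiated-over-unirradiated ratio was higher at 8 weeks. Levels are log2 signals relative to each array's 75th percentile, and n is 3 arrays in every group. All tests below are two-sided moderated limma tests with Benjamini-Hochberg adjustment over 11884 genes and a threshold of 0.05, and errors of differences are standard errors. Between 51.05% and 62.09% of probes were well above background on an array. Replicates of a group correlated at 0.992 to 0.997, except that the second unirradiated 1-week array correlated at 0.978 and 0.98 with its fellows. That array stood apart in muscle and cartilage transcripts, with a mean level of 4.62 over the 23 tested skeletal muscle genes, and values that move by over 1.5 times without it are given both ways. Counts of 2 or fewer list members carry no direction. Such counts of members whose response differed between the ages moved by up to 3 when 1 array was left out, apart from the cartilage list. A member entered the tests when any of the 6 groups measured it above background, so members bright in irradiated 8-week marrow alone are among those counted. Some genes belong to more than 1 list, with 1158 memberships over 1047 tested genes, so the list counts are not independent of each other.

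Of the 11884 genes, 5001 (42.1%) had a response that differed between the ages, 3391 (28.5%) higher and 1610 (13.5%) lower at 8 weeks than at 1 week. The difference was at least 2-fold for 910 of them, 761 higher and 149 lower. The response itself was broader in the older mice. At 8 weeks 6870 genes (57.8%) passed, of which 4549 (38.3% of those tested) rose and 2321 (19.5%) fell, and at 1 week 4279 genes (36%) passed, of which 2192 (18.4%) rose and 2087 (17.6%) fell. The median absolute response was 0.30 at 8 weeks and 0.20 at 1 week. Without the second unirradiated 1-week array 4729 genes differed, 70.8% of them higher.

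Most of the differing genes had responded in the older mice. Among the 5001, 2684 (53.7%) had passed at 8 weeks and not at 1 week, 788 (15.8%) at 1 week and not at 8 weeks, and 200 (4%) at neither age. A further 480 (9.6%) moved the same way at both ages and further at 8 weeks, and 166 (3.32%) the same way and further at 1 week. The remaining 683 (13.7%) passed at both ages in opposite directions, 494 of them rising at 8 weeks and falling at 1 week. Across genes the 2 responses, which share no array, had a Pearson correlation of 0.41 and a Spearman correlation of 0.32, and genes are not independent replicates. The median age difference over all tested genes was 0.11. With each array's own median over tested genes as the scale in place of the 75th percentile, that median was 0.02 and 53.3% of 4725 calls were higher, so the 67.8% share of higher calls depends on the scale. In RNA from whole marrow, fewer cells of a type and less RNA per cell cannot be told apart.

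**Figure D1:**
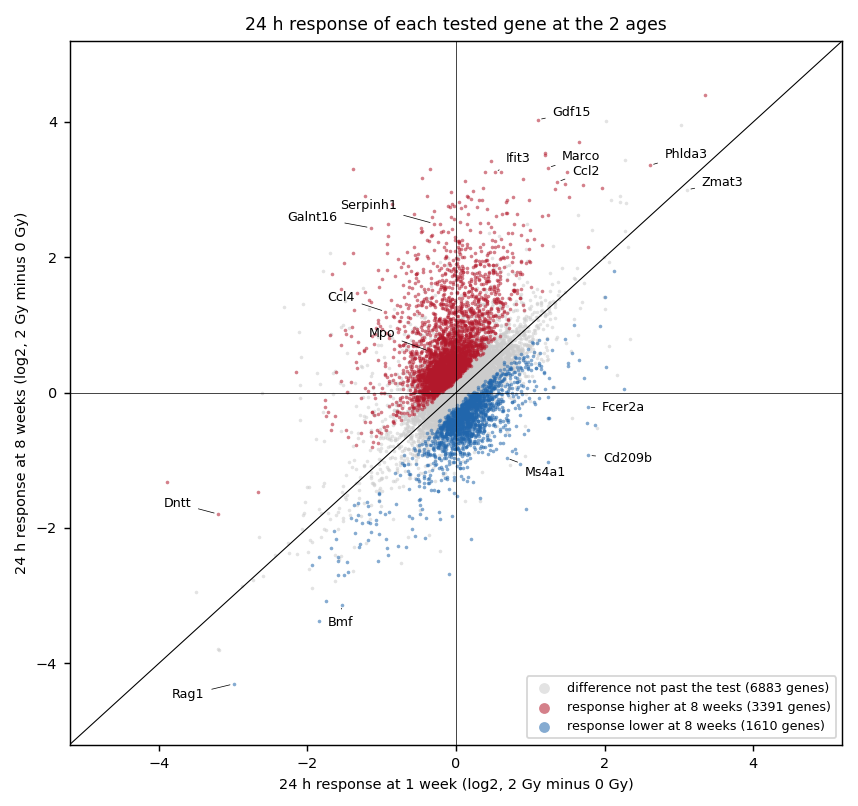
Each point is 1 of 11884 genes, with the 24 h response at 1 week on the x axis and at 8 weeks on the y axis, both in log2 units. Red points are the 3391 genes whose response was higher at 8 weeks, blue points the 1610 that were lower and grey points the rest, and the diagonal line marks equal responses. Gdf15, Ifit3 and Serpinh1 lie far above the line, Zmat3 lies close to it, and Rag1 and Dntt lie at the lower left on either side of it.

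The core p53 response was present at both ages. Of 39 tested p53 target genes, 25 rose and 6 fell at 8 weeks, and 29 rose and 0 fell at 1 week, with median responses of 0.76 and 0.63 at the 2 ages. Between the ages 6 were higher and 9 lower, and the median difference was -0.12, against 0.11 over all tested genes. The count of lower ones was 5 without the second irradiated 8-week or the second irradiated 1-week array. Zmat3, which encodes an RNA-binding protein under p53 control, had levels of 1.50, 1.33 and 1.34 on the irradiated 8-week arrays, against -1.61, -1.63 and -1.57 on the unirradiated 8-week arrays. At 1 week it had 1.69, 1.56 and 1.60 on the irradiated 1-week arrays, against -1.49, -1.56 and -1.43 on the unirradiated 1-week arrays. The groups did not overlap at either age, and the difference was -0.12 ± 0.11 (adjusted p = 0.41).

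Cdkn1a, the p53-induced inhibitor of cyclin-dependent kinases, rose by 2.81 at 8 weeks and rose by 2.29 at 1 week, a difference of 0.52 ± 0.23 (adjusted p = 0.081). Mdm2, which marks p53 for degradation, rose by 0.28 at 8 weeks and rose by 0.63 at 1 week, with a difference of -0.36 ± 0.12 (adjusted p = 0.026). The Mdm2 call was lost without the second irradiated 8-week, the third unirradiated 8-week, the second or the third irradiated 1-week or the first unirradiated 1-week array (adjusted p = 0.053 to 0.074). It was also lost with slide as a block, and the highest adjusted p over all alternatives was 0.17. Phlda3, an inhibitor of Akt signalling, rose by 3.36 at 8 weeks and rose by 2.61 at 1 week, a difference of 0.75 ± 0.10 (adjusted p = 4.6e-05). Its irradiated levels of 4.91, 4.93 and 5.01 at 8 weeks stood close to 4.80, 4.82 and 4.80 at 1 week, while the unirradiated 8-week arrays were the lowest. Sesn1, a stress-induced regulator of mTOR signalling, fell by 0.44 at 8 weeks and differed by 0.06 without passing the test at 1 week, and Ckap2, a spindle-associated protein, fell by 0.51 at 8 weeks and differed by 0.18 without passing the test at 1 week.

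Gdf15, a secreted stress cytokine of the TGF-beta family, had the highest difference of the p53 list. Its levels were -0.08, 0.13 and 0.11 on the irradiated 8-week arrays, against -3.52, -4.0 and -4.42 on the unirradiated 8-week arrays. In the younger mice they were -2.32, -2.41 and -2.72 on the irradiated 1-week arrays, against -3.67, -4.67 and -2.41 on the unirradiated 1-week arrays. The 8-week groups were fully separate, and the 1-week groups overlapped because the third unirradiated array was as high as the irradiated ones. The gene rose by 4.03 at 8 weeks and rose by 1.1 at 1 week, a difference of 2.93 ± 0.54 (adjusted p = 0.00053). The difference was 3.47 without the second unirradiated 1-week array, 2.34 without the third and 2.17 with normexp background correction.

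Apoptosis regulators were divided, with 5 higher and 6 lower among 23 tested (47.8%, against 42.1% of all tested genes). The higher count was 3 without the second irradiated 8-week or the third irradiated 1-week array. Bmf, a BH3-only protein that neutralizes Bcl2 family survival factors, fell by 3.13 at 8 weeks and fell by 1.54 at 1 week, a difference of -1.59 ± 0.11 (adjusted p = 1.5e-07) from its brightest probe. Its other 2 probes, dim on some arrays, gave -0.50 and 0.21, and the mean over probes was -0.63 with the call lost. Xiap, an inhibitor of caspases, fell by 0.23 at 8 weeks and rose by 0.43 at 1 week, and Birc3, a ubiquitin ligase that restrains cell death, fell by 0.44 at 8 weeks and differed by 0.13 without passing the test at 1 week. Bak1, a pore-forming death effector, rose by 0.44 at 8 weeks and differed by -0.11 without passing the test at 1 week. The calls of Bak1 and Xiap were also lost when probes of a gene were averaged.

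Interferon-stimulated genes had higher responses in 8-week than in 1-week marrow. Of 35 tested, 32 rose at 8 weeks and 8 at 1 week, none fell at either age, and the median responses were 1.06 and 0.09. Without the second unirradiated 1-week array, 5 rose and 4 fell at 1 week. The age difference was higher for 30 of them and lower for none, with a median of 1.02. Their mean level lay between 2.58 and 2.89 on the irradiated 8-week arrays and between 1.48 and 1.69 on the unirradiated ones, and it was 0.92 to 0.96 and 0.59 to 1.0 on the irradiated and unirradiated 1-week arrays. Without irradiation the list's median difference between 8 and 1 week was 0.77, against -0.09 over all tested genes.

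Ifit3, which encodes an antiviral protein with tetratricopeptide repeats, had levels of 3.49, 3.83 and 4.0 on the irradiated 8-week arrays, against 0.34, 0.33 and 0.89 on the unirradiated 8-week arrays. At 1 week it had -0.90, -0.71 and -0.92 on the irradiated 1-week arrays, against -1.03, -1.85 and -1.22 on the unirradiated 1-week arrays. Both ages had separate groups, but the irradiated 1-week arrays remained below every unirradiated 8-week array. The gene rose by 3.25 at 8 weeks and rose by 0.52 at 1 week, a difference of 2.73 ± 0.26 (adjusted p = 2.4e-06). Oas1a, which makes the 2-5A messenger that activates RNase L, had 3.68, 3.96 and 3.97 on the irradiated 8-week arrays, against 1.95, 1.97 and 2.03 on the unirradiated 8-week arrays, and 1.12, 1.16 and 0.88 on the irradiated 1-week arrays, against 1.55, 0.92 and 1.17 on the unirradiated 1-week arrays. The 1-week groups of Oas1a overlapped, and the difference was 2.05 ± 0.19 (adjusted p = 1.7e-06). Oasl1, an inhibitor of Irf7 translation in the mouse, rose by 2.12 at 8 weeks and differed by 0.12 without passing the test at 1 week, and Oasl2, a related protein that keeps synthetase activity, rose by 1.97 at 8 weeks and differed by 0.27 without passing the test at 1 week. Probes for such closely related family members may cross-hybridize, which was not tested. The 5 tested members that did not pass were Isg15 (0.27), Isg20 (-0.20), Rsad2 (-0.17), Slfn5 (1.02) and Sp100 (-0.22). Irf7, a transcription factor that drives this programme, differed by 1.17.

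The guanylate-binding proteins and immunity-related GTPases, which attack the vacuoles of intracellular microbes and are induced strongly by interferon gamma, followed the same direction. At 8 weeks 13 of 15 rose and at 1 week 4 rose and 2 fell, and 10 had a higher difference and 1, Gvin1 at -0.68, a lower one. Gbp2 had 0.71, 0.85 and 1.12 on the irradiated 8-week arrays, against -0.79, -0.81 and -0.61 on the unirradiated 8-week arrays, and -1.50, -1.80 and -1.76 on the irradiated 1-week arrays, against -1.26, -1.71 and -1.61 on the unirradiated 1-week arrays. The 8-week groups were separate and the 1-week groups overlapped, with a difference of 1.79 ± 0.18 (adjusted p = 3.4e-06). Iigp1 rose by 2.19 at 8 weeks and differed by 0.36 without passing the test at 1 week, Gbp3 rose by 0.87 at 8 weeks and differed by -0.09 without passing the test at 1 week, and Ifi47 rose by 0.81 at 8 weeks and differed by -0.23 without passing the test at 1 week. Among 17 tested genes of MHC class I presentation, 9 were higher and 0 lower, with a median of 0.40. Psmb10, a catalytic subunit of the immunoproteasome, rose by 0.17 at 8 weeks and fell by 0.60 at 1 week, and Erap1, an aminopeptidase that trims peptides for class I, rose by 0.54 at 8 weeks and differed by -0.16 without passing the test at 1 week. Psme1, a proteasome activator, rose by 0.55 at 8 weeks and differed by -0.01 without passing the test at 1 week, and Calr, a chaperone of class I loading, rose by 0.82 at 8 weeks and differed by 0.17 without passing the test at 1 week. Ifng itself, the gene for interferon gamma, rose by 1.24 at 8 weeks and differed by 0.06 without passing the test at 1 week.

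Interferon-activated factors are known to act through a repeat of GAAA with 2 free bases between, which was searched as GAAANNGAAA and TTTCNNTTTC on both strands of the RefSeq promoters of build GRCm38.p6, from 250 bases before to 50 after the start. The sequences of 4 genes that turn on the interferon result are shown 5′ to 3′ on the gene's strand, with the matches in capitals.
Ifit3 (chr19:34583279-34583578, plus strand): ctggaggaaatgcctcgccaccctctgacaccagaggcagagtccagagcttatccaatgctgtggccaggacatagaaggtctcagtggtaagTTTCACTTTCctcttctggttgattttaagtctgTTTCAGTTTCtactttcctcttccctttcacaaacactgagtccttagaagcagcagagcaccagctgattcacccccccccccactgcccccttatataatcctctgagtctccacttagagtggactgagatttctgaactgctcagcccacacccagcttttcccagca
Oas1a (chr5:120907476-120907775, minus strand): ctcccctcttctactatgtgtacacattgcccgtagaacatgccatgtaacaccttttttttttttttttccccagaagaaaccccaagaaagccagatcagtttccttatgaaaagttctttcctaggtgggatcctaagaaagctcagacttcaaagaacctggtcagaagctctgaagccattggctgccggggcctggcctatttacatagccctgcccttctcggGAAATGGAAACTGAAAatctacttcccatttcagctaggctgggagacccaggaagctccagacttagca
Gbp2 (chr3:142620413-142620712, plus strand): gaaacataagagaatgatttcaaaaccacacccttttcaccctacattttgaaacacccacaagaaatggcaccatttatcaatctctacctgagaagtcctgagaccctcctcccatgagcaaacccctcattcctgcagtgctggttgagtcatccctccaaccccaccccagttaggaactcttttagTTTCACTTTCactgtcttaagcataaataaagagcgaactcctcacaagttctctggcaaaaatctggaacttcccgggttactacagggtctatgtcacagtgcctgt
Cxcl10 (chr5:92348840-92349139, minus strand): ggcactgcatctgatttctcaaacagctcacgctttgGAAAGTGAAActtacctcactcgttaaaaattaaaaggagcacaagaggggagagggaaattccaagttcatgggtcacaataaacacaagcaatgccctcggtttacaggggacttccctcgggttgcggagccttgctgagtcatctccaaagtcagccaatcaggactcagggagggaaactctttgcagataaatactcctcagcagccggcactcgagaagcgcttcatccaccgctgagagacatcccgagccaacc

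Ifit3 and Oas1a each held 2 matches, overlapping in Oas1a, and Gbp2 and Cxcl10 held 1 each. The match occurred in 1131 of all 32851 promoters (3.44%) and at 363 (3.8%) of the 9558 tested genes that had a promoter in the table. It occurred at 14 (51.9%) of 27 matched interferon-stimulated genes, 8 (88.9%) of 9 matched GBP and IRG genes, 4 (26.7%) of 15 matched class I genes and 3 (18.8%) of 16 matched chemokine ligands. It was at none of 24 matched stromal genes, none of 23 matched macrophage genes and 1 (3.12%) of 32 matched p53 targets. A match describes the letters in this window and is not a measured binding site.

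Chemokine ligands, the secreted proteins that direct leukocyte traffic, had higher responses in 8-week than in 1-week marrow. Of 22 tested among 37 listed, 17 rose and none fell at 8 weeks, while 8 rose and 1 fell at 1 week. The age difference was higher for 12 and lower for 1, with a median of 0.96, and of the 13 members above background on all 12 arrays 7 were higher. Ccl2, the main attractant of Ccr2-bearing monocytes, had -0.85, -0.67 and -0.73 on the irradiated 8-week arrays, against -3.84, -3.76 and -3.99 on the unirradiated 8-week arrays. In 1-week marrow it had -2.32, -2.30 and -2.28 on the irradiated 1-week arrays, against -3.61, -3.76 and -3.63 on the unirradiated 1-week arrays. The groups were separate at both ages, and the difference was 1.75 ± 0.15 (adjusted p = 9.8e-07).

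Ccl7 and Ccl12, which lie beside Ccl2 in the genome and also bind Ccr2, were not well above background in unirradiated 8-week marrow, where a fold is given as a lower bound against the dimmest measurable signal. Their irradiated 8-week levels were at least 1.97-fold and at least 2.54-fold higher. At 1 week both genes were below that level on all 6 arrays, so the fitted age differences of 2.73 ± 0.37 (adjusted p = 3.8e-05) for Ccl7 and 2.31 ± 0.49 (adjusted p = 0.0015) for Ccl12 have no measured 1-week side. Ccl3 and Ccl4, ligands made by activated myeloid and NK cells, divided the ages further. Ccl4 had -0.57, -0.23 and -0.24 on the irradiated 8-week arrays, against -1.62, -1.58 and -1.43 on the unirradiated 8-week arrays, and -3.89, -3.31 and -3.17 on the irradiated 1-week arrays, against -2.28, -2.74 and -2.48 on the unirradiated 1-week arrays. It stood higher on all irradiated 8-week arrays and lower on all irradiated 1-week arrays than on their controls, a difference of 2.15 ± 0.25 (adjusted p = 1.1e-05). Ccl3 rose by 1.17 at 8 weeks and differed by -0.02 without passing the test at 1 week. Xcl1, a lymphotactin released by NK and T cells, rose by 1.16 at 8 weeks, and at 1 week it was well above background on 1 of 6 arrays.

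Cxcl10, an interferon-induced ligand of Cxcr3, had 0.61, 0.95 and 1.17 on the irradiated 8-week arrays, against -0.79, -1.41 and -1.24 on the unirradiated 8-week arrays, and -1.76, -1.29 and -1.21 on the irradiated 1-week arrays, against -2.05, -2.30 and -2.17 on the unirradiated 1-week arrays. Both ages were separate and the 8-week step was the larger, with a difference of 1.31 ± 0.26 (adjusted p = 0.00094). Cxcl12, the stromal ligand that holds stem cells in the marrow, had 5.97, 5.81 and 5.62 on the irradiated 8-week arrays, against 4.15, 3.67 and 3.75 on the unirradiated 8-week arrays, and 5.76, 5.48 and 5.60 on the irradiated 1-week arrays, against 4.86, 4.48 and 4.86 on the unirradiated 1-week arrays. The irradiated levels of the ages overlapped, the unirradiated 8-week levels were the lowest, and the difference was 1.07 ± 0.22 (adjusted p = 0.0012). Cxcl14, a chemokine of epithelia and stroma, rose by 3.08 at 8 weeks and rose by 1.47 at 1 week, a difference of 1.60 ± 0.23 (adjusted p = 6.1e-05). Cxcl16, the membrane-bound ligand of Cxcr6, rose by 1.27 at 8 weeks and differed by 0.13 without passing the test at 1 week, and Cx3cl1, the ligand of Cx3cr1 on vessels, rose by 1.52 at 8 weeks and rose by 0.77 at 1 week. Ccl19, a ligand of Ccr7, rose by 0.75 at 8 weeks and differed by -0.05 without passing the test at 1 week. The call on its difference was lost without the first irradiated 8-week, the second or the third unirradiated 8-week, the first or the second irradiated 1-week or the first unirradiated 1-week array (adjusted p = 0.055 to 0.086). It was also lost with normexp and on the median scale, and the highest adjusted p over all alternatives was 0.22. Ccl6, a myeloid chemokine of rodents, was the exception and rose by 0.60 at 8 weeks and rose by 1.05 at 1 week, a difference of -0.45 ± 0.13 (adjusted p = 0.012).

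Among the receptors more differences were lower than higher. Of 18 tested, 2 were higher and 7 lower, with a median of -0.19. Ccr6, found on mature B cells and some T cells, fell by 0.38 at 8 weeks and rose by 1.25 at 1 week, and Ccr7, which guides lymphocytes to lymph nodes, fell by 1.64 at 8 weeks and fell by 0.80 at 1 week. Cx3cr1, a marker of patrolling monocytes, fell by 0.74 at 8 weeks and rose by 0.60 at 1 week on its brightest probe, and its call was lost when probes were averaged. Ccr2 differed by -0.80 and Cxcr5 by -0.54. Ackr4, a scavenger of Ccr7 ligands in stroma, was not well above background in unirradiated 8-week marrow. It was at least 4.42-fold higher after irradiation, with a fitted difference of 2.33 ± 0.46 (adjusted p = 0.00087) that was 0.80 with normexp background correction.

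**Figure D2:**
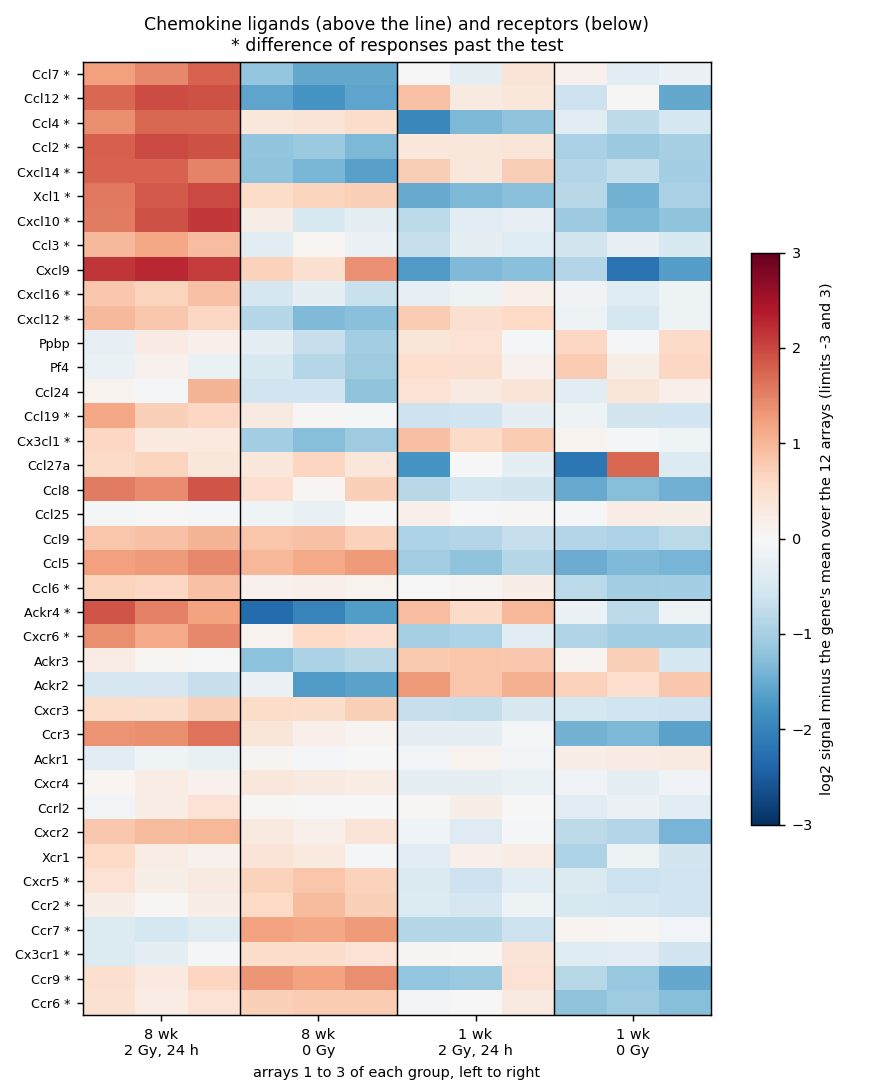
Rows are 22 chemokine ligands above the line and 17 of the 18 tested receptors below it, columns the 12 arrays, and colour the log2 level minus the gene's mean over these arrays. An asterisk marks a response that differed between the ages. The mean over the ligands is highest on the 3 irradiated 8-week arrays, although this does not hold for every ligand, Cxcl12 among them.

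Genes of resident macrophages rose at both ages and further at 8 weeks. Of 36 tested, 30 rose at 8 weeks and 28 at 1 week, with median responses of 1.36 and 0.51. The difference was higher for 25 and lower for 2, Cd209b and Cd36, with a median of 0.70. Their mean level was 1.29 to 1.35 on irradiated and 0.03 to 0.14 on unirradiated 8-week arrays, and 0.18 to 0.29 and -0.45 to -0.30 on the matching 1-week arrays.

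Marco, a scavenger receptor for particles and bacteria, had 2.76, 3.06 and 2.87 on the irradiated 8-week arrays, against -0.08, -0.65 and -0.55 on the unirradiated 8-week arrays. In the younger mice it had 2.20, 1.85 and 2.0 on the irradiated 1-week arrays, against 0.85, 0.56 and 0.93 on the unirradiated 1-week arrays. Neither age had overlapping groups, and the difference was 2.09 ± 0.19 (adjusted p = 1.7e-06). Spic, the transcription factor of red-pulp and erythroblastic-island macrophages that recycle iron, rose by 1.91 at 8 weeks and rose by 0.95 at 1 week, a difference of 0.97 ± 0.11 (adjusted p = 9.4e-06). Hmox1, which opens the haem ring, rose by 2.16 at 8 weeks and rose by 1.78 at 1 week, and its difference of 0.37 ± 0.12 (adjusted p = 0.024) was small beside those responses. The Hmox1 call was lost without the third irradiated 8-week, the third unirradiated 8-week, the second irradiated 1-week or the second unirradiated 1-week array (adjusted p = 0.054 to 0.065). It was also lost with 3 other scalings and with normexp, where the difference was 0.13. The highest adjusted p over all alternatives was 0.56. Siglec1, the sialic acid receptor of island macrophages and an interferon-induced gene, rose by 2.64 at 8 weeks and differed by 0.16 without passing the test at 1 week, but its second probe went the other way (-0.52) and the call was lost when probes were averaged. Nr1h3, a sterol-sensing nuclear receptor, rose by 1.89 at 8 weeks and rose by 0.50 at 1 week. Axl, a receptor for dying cells, rose by 1.38 at 8 weeks and rose by 0.39 at 1 week, and its ligand Gas6 rose by 2.32 at 8 weeks and rose by 0.88 at 1 week. Mrc2, a collagen-binding receptor shared with fibroblasts, rose by 1.37 at 8 weeks and fell by 0.53 at 1 week.

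Complement genes followed, with 11 of 21 higher and 1, the complement regulator Cd59a at -0.45, lower. The Cd59a call was lost when probes were averaged. C1qa, a chain of the recognition protein C1q, had 3.0, 3.04 and 3.17 on the irradiated 8-week arrays, against 1.74, 1.64 and 1.41 on the unirradiated 8-week arrays, and 1.12, 1.05 and 1.13 on the irradiated 1-week arrays, against 1.16, 0.85 and 0.95 on the unirradiated 1-week arrays. The 8-week groups were separate and the 1-week groups overlapped, a difference of 1.36 ± 0.19 (adjusted p = 5.4e-05). C1qb rose by 1.58 at 8 weeks and rose by 0.52 at 1 week. C2, the protease of the classical pathway, rose by 1.45 at 8 weeks and differed by -0.17 without passing the test at 1 week, and Cfb, its counterpart in the alternative pathway, rose by 1.68 at 8 weeks and differed by 0.03 without passing the test at 1 week. Of 24 scavenger and dead-cell uptake receptors, 13 were higher and 3 lower, with a median of 0.38. In the list of haem and iron recycling 8 of 20 were higher and 1 lower, with a median of 0.0. Ftl1, the ferritin light chain, rose by 1.06 at 8 weeks and rose by 0.41 at 1 week. Tfrc, the transferrin receptor of erythroid precursors, fell by 0.57 at 8 weeks and differed by 0.28 without passing the test at 1 week.

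Mature B-cell genes fell at 8 weeks and did not do so as a group at 1 week. Of 24 tested, 2 rose and 15 fell at 8 weeks, and 8 rose and 6 fell at 1 week. The difference was lower for 14 and higher for none, with a median of -0.74. Without irradiation the list was higher at 8 than at 1 week by a median of 1.18. Ms4a1, which encodes the B-cell surface protein CD20, had 3.48, 3.20 and 3.42 on the irradiated 8-week arrays, against 4.34, 4.35 and 4.30 on the unirradiated 8-week arrays. At 1 week it had 2.93, 2.95 and 3.22 on the irradiated 1-week arrays, against 2.48, 2.39 and 2.19 on the unirradiated 1-week arrays. Irradiated arrays were all lower at 8 weeks and all higher at 1 week, with a difference of -1.64 ± 0.15 (adjusted p = 1.4e-06).

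Cd72, an inhibitory coreceptor of B cells, fell by 2.40 at 8 weeks and fell by 0.92 at 1 week, and Fcmr, the receptor for IgM, fell by 0.86 at 8 weeks and rose by 0.50 at 1 week. Fcer2a, the low-affinity IgE receptor of mature B cells, differed by -0.22 without passing the test at 8 weeks. At 1 week, where it was not well above background without irradiation, it was at least 2.07-fold higher in irradiated mice, and the fitted difference was -1.99 ± 0.23 (adjusted p = 8.7e-06). The MHC class II list, whose genes present peptides on B cells and other antigen-presenting cells, gave 0 higher and 7 lower of 12, with 6 falling at 8 weeks and 6 rising at 1 week. Ciita, the master activator of class II transcription, had 0.01, -0.10 and 0.16 on the irradiated 8-week arrays, against 0.72, 0.83 and 1.09 on the unirradiated 8-week arrays, and -0.91, -0.70 and -0.38 on the irradiated 1-week arrays, against -1.18, -1.38 and -1.70 on the unirradiated 1-week arrays. The groups moved apart in opposite directions with no overlap, a difference of -1.61 ± 0.23 (adjusted p = 6e-05). Cd74, the invariant chain, fell by 0.41 at 8 weeks and rose by 0.69 at 1 week, H2-Aa fell by 0.41 at 8 weeks and rose by 0.69 at 1 week, and H2-Ab1 fell by 0.27 at 8 weeks and rose by 0.64 at 1 week.

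B-cell precursor genes fell steeply at both ages. Of 21 tested, 20 fell at 8 weeks and 20 at 1 week, with median responses of -1.89 and -1.42, and 8 differences were lower and 2, Dntt and Myb, higher. The Myb call was lost when probes were averaged. Rag1, a subunit of the V(D)J recombinase, had -1.57, -1.55 and -1.69 on the irradiated 8-week arrays, against 2.76, 2.66 and 2.67 on the unirradiated 8-week arrays, and -0.82, -0.81 and -0.79 on the irradiated 1-week arrays, against 2.22, 1.99 and 2.36 on the unirradiated 1-week arrays. It fell further at 8 weeks, by 4.30 against 3.0 at 1 week, a difference of -1.31 ± 0.14 (adjusted p = 6.7e-06). Dntt, which adds untemplated nucleotides at V(D)J joints, had 3.45, 3.44 and 3.35 on the irradiated 8-week arrays, against 5.26, 5.12 and 5.24 on the unirradiated 8-week arrays, and 1.69, 1.87 and 1.84 on the irradiated 1-week arrays, against 4.99, 4.85 and 5.19 on the unirradiated 1-week arrays. It fell further at 1 week, a difference of 1.42 ± 0.15 (adjusted p = 4e-06), and its other 2 probes gave 0.68 and 1.44. Vpreb3, a precursor B-cell gene of the light-chain family, fell by 2.30 at 8 weeks and fell by 1.68 at 1 week, and Akap12, a scaffold protein of kinase signalling, fell by 2.29 at 8 weeks and fell by 1.31 at 1 week. Cd79a, a signalling chain of the B-cell receptor, fell by 1.32 at 8 weeks and differed by -0.50 without passing the test at 1 week, and the difference of -0.82 ± 0.41 (adjusted p = 0.12) did not pass.

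Genes of early granulocytes, cytotoxic cells and progenitors had higher responses at 8 weeks. Of 14 tested early granulocyte genes, 13 rose and none fell at 8 weeks, and 2 rose and 5 fell at 1 week. The difference was higher for 10 and lower for 1, with a median of 0.97. Mpo, the myeloperoxidase of granule-forming promyelocytes, had 9.15, 9.30 and 9.12 on the irradiated 8-week arrays, against 8.60, 8.53 and 8.61 on the unirradiated 8-week arrays. The younger marrow had 7.79, 7.81 and 7.65 on the irradiated 1-week arrays, against 8.20, 8.03 and 8.08 on the unirradiated 1-week arrays. Irradiated arrays were all higher than unirradiated ones at 8 weeks and all lower at 1 week, a difference of 0.96 ± 0.10 (adjusted p = 3.7e-06). Prtn3, proteinase 3 of the same granules, rose by 0.92 at 8 weeks and fell by 0.46 at 1 week, and Ctsg, cathepsin G, rose by 1.04 at 8 weeks and differed by -0.15 without passing the test at 1 week. Gstm1, a glutathione transferase, rose by 0.62 at 8 weeks and fell by 0.41 at 1 week. The exception was Igsf6 at -0.40, whose call was lost without the second irradiated 8-week, the third unirradiated 8-week, the third irradiated 1-week or the third unirradiated 1-week array (adjusted p = 0.1 to 0.12).

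Late neutrophil genes behaved otherwise. At 8 weeks 35 of 37 rose and at 1 week 36, with medians of 0.70 and 0.76, and 6 differences were higher and 4 lower (27%, against 42.1% of all tested genes). The higher count was 3 without the third irradiated 8-week, the first unirradiated 8-week or the first unirradiated 1-week array. With the median scale the counts were 3 and 8, so no direction is given for the list. Stfa1, one of several near-identical stefins that a probe may not separate, rose by 1.69 at 8 weeks and rose by 0.43 at 1 week. Itgb2l, a beta-integrin of neutrophils, differed by -0.06 without passing the test at 8 weeks and rose by 1.24 at 1 week, and Itgam, the integrin chain CD11b, rose by 0.38 at 8 weeks and rose by 0.92 at 1 week. Of 26 monocyte genes, 3 were higher and 10 lower. Ms4a7 rose by 1.75 at 8 weeks and rose by 0.86 at 1 week, and Ly86, a partner of the Toll-like receptor relative RP105, fell by 0.18 at 8 weeks and rose by 0.30 at 1 week. Of 10 eosinophil genes, 9 rose at 8 weeks and all 10 at 1 week, and 5 differences were lower, a count that was 2 or 3 without 1 array in 6 of 12 cases. Alox15, a lipoxygenase, rose by 0.59 at 8 weeks and rose by 1.55 at 1 week, and Prg2, the major basic protein, rose by 0.64 at 8 weeks and rose by 0.97 at 1 week. The Prg2 call was lost without the first or the second irradiated 8-week, the second or the third unirradiated 8-week, the third irradiated 1-week or the first or the third unirradiated 1-week array (adjusted p = 0.05 to 0.081).

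Of 24 tested NK and cytotoxic genes, 11 were higher and none lower, with a median of 0.58, and of the 11 members above background on all 12 arrays 7 were higher. At 8 weeks 9 rose and 2 fell, and at 1 week 1 rose and 6 fell. Nkg7, a membrane protein of cytotoxic granules that early granulocytes also express, had 4.28, 4.53 and 4.32 on the irradiated 8-week arrays, against 3.76, 3.59 and 3.73 on the unirradiated 8-week arrays, and 1.83, 1.80 and 1.67 on the irradiated 1-week arrays, against 2.35, 2.20 and 2.29 on the unirradiated 1-week arrays. The groups were separate at both ages and moved in opposite directions, a difference of 1.20 ± 0.12 (adjusted p = 2.5e-06). Gzmb, the granzyme that activates caspases in target cells, rose by 0.96 at 8 weeks and fell by 0.79 at 1 week, and Gzma, a second granzyme, differed by -0.08 without passing the test at 8 weeks and fell by 1.28 at 1 week. Gzmb was not well above background on all 12 arrays, and its difference of 1.75 was 1.02 at the lowest over the alternatives. Tbx21, the transcription factor T-bet, rose by 0.42 at 8 weeks and fell by 0.60 at 1 week. The unirradiated 8-week arrays stood above the unirradiated 1-week arrays by a median of 1.74 over this list.

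Of 25 tested stem and progenitor genes, 12 rose and 5 fell at 8 weeks, 1 rose and 8 fell at 1 week, and 12 differences were higher and 2 lower. Cd34, a sialomucin of progenitors and vessels, had 3.68, 3.73 and 3.66 on the irradiated 8-week arrays, against 2.89, 2.86 and 3.10 on the unirradiated 8-week arrays, and 2.30, 2.40 and 2.53 on the irradiated 1-week arrays, against 2.82, 3.0 and 3.02 on the unirradiated 1-week arrays. The opposite moves gave a difference of 1.28 ± 0.11 (adjusted p = 1.3e-06). Hlf, a transcription factor of stem cells, rose by 0.40 at 8 weeks and fell by 0.76 at 1 week, a difference of 1.16 ± 0.16 (adjusted p = 4.4e-05). Procr, a protein C receptor found on stem cells and endothelium, rose by 0.88 at 8 weeks and differed by -0.08 without passing the test at 1 week. Mycn, a Myc family factor of fetal progenitors, rose by 0.43 at 8 weeks and fell by 0.96 at 1 week, a call lost when probes were averaged. The endothelial list, which includes Cd34, was also higher at 8 weeks, with 20 of 31 higher, and their part in these values was not tested.

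Erythroid genes mostly fell at 8 weeks, and more of them rose than fell at 1 week. Of 28 tested, 3 rose and 16 fell at 8 weeks, 11 rose and 2 fell at 1 week, and 17 differences were lower and 1, Bcl11a at 0.26, higher. The Bcl11a call was lost without the third irradiated 1-week array (adjusted p = 0.056). It was also lost with normexp, slide as a block and the median scale, and the highest adjusted p over all alternatives was 0.18. Epb42, which anchors the red-cell skeleton to the membrane, had 1.51, 1.61 and 1.61 on the irradiated 8-week arrays, against 2.27, 2.28 and 2.30 on the unirradiated 8-week arrays, and 2.91, 3.02 and 2.92 on the irradiated 1-week arrays, against 2.52, 2.55 and 2.76 on the unirradiated 1-week arrays. Irradiated arrays were lower than all unirradiated ones at 8 weeks and higher than all at 1 week, a difference of -1.04 ± 0.17 (adjusted p = 0.00017). Trim10, a ubiquitin ligase of erythroid cells, fell by 0.50 at 8 weeks and rose by 0.17 at 1 week. Bpgm, which makes the haemoglobin modulator bisphosphoglycerate, rose by 0.39 at 8 weeks and rose by 1.15 at 1 week. Of 14 haem synthesis genes, 9 were lower and none higher, a count of 4 with slide as a block and 5 without the first irradiated 8-week array. Urod fell by 0.27 at 8 weeks and differed by 0.14 without passing the test at 1 week, and Abcb10, a mitochondrial transporter of erythroid cells, fell by 0.51 at 8 weeks and differed by 0.04 without passing the test at 1 week.

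Of 38 mitosis genes, 24 fell at 8 weeks and 3 at 1 week, and 17 differences were lower and none higher, with a median of -0.30. The count was 10 without the first unirradiated 8-week array and 11 with slide as a block. Knl1, a kinetochore scaffold, had 1.55, 1.30 and 1.32 on the irradiated 8-week arrays, against 2.53, 2.09 and 2.27 on the unirradiated 8-week arrays, and 2.48, 2.67 and 2.42 on the irradiated 1-week arrays, against 2.17, 2.07 and 2.06 on the unirradiated 1-week arrays. Both ages were separate and moved in opposite directions, a difference of -1.33 ± 0.16 (adjusted p = 1.4e-05). Mki67, the proliferation antigen Ki-67, fell by 0.68 at 8 weeks and differed by 0.16 without passing the test at 1 week, and the kinetochore genes Cenpe and Cenpf differed by -0.90 and -0.93. Ccnb1, the mitotic cyclin B1, differed by -0.07 on its brightest probe and did not pass. Its other 2 probes, above background on all 12 arrays, gave -0.45 and -0.28. Of 41 replication genes, 3 were higher and 4 lower (17.1%, against 42.1% of all tested genes), with Rrm2, a ribonucleotide reductase subunit, at -0.51 and Ccne2, a cyclin of S-phase entry, at -0.73. Rfc2 and Lig1, a clamp loader subunit and a DNA ligase, differed by 0.37 and 0.27. Both calls were lost with quantile scaling and on the median scale. When 1 array was left out, the Ccne2 call was lost without the first or the third irradiated 8-week, the first unirradiated 8-week or the first or the second unirradiated 1-week array (adjusted p = 0.05 to 0.057) and the Lig1 call without the second unirradiated 8-week, the third irradiated 1-week or the first unirradiated 1-week array (adjusted p = 0.052 to 0.06), and the replication counts were 1 to 4 higher and 1 to 5 lower.

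**Figure D3:**
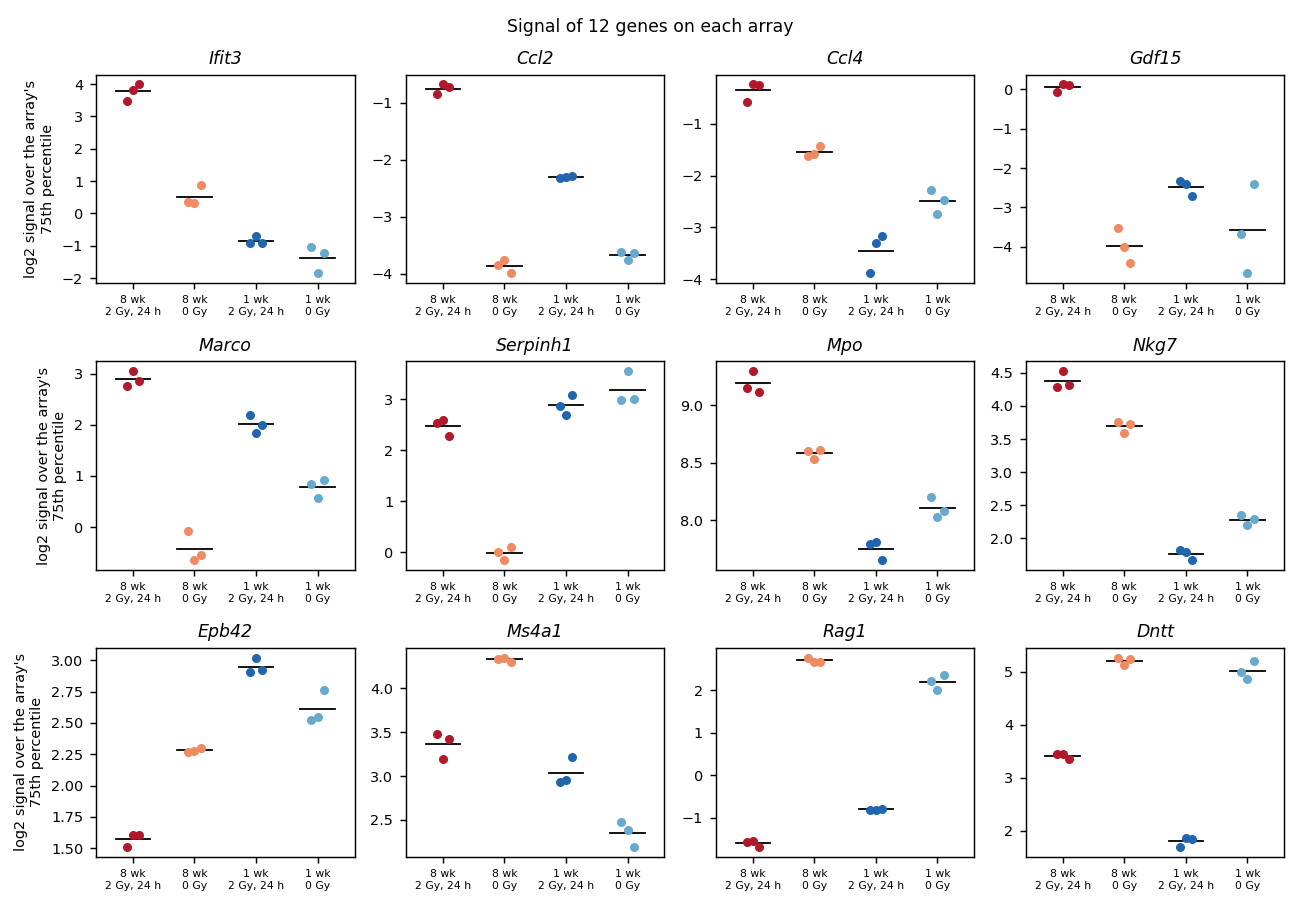
Each panel is 1 of 12 genes, with groups on the x axis and the log2 level relative to the array's 75th percentile on the y axis. Points are the 3 arrays of a group and bars the group means. Mpo, Nkg7, Epb42 and Ms4a1 move in opposite directions at the 2 ages, whereas Rag1 and Dntt fall at both.

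Many of the highest differences belonged to genes of the marrow's supporting tissue. Of 33 tested genes of stromal fibroblasts and pericytes, 31 rose and none fell at 8 weeks, 9 rose and 4 fell at 1 week, and 29 differences were higher and none lower, with a median of 1.47. Without the second unirradiated 1-week array 31 were higher. Unirradiated 8-week marrow stood below unirradiated 1-week marrow with a median difference of -2.20 over this list, and irradiated 8-week marrow below irradiated 1-week marrow with a median difference of -0.40. The mean level was 0.40 to 0.79 on irradiated and -1.06 to -0.89 on unirradiated 8-week arrays, and 0.88 to 1.04 on irradiated and 0.81 to 1.03 on unirradiated 1-week arrays.

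Serpinh1, the collagen chaperone Hsp47, had 2.53, 2.60 and 2.29 on the irradiated 8-week arrays, against 0.0, -0.16 and 0.09 on the unirradiated 8-week arrays. At 1 week it had 2.86, 2.70 and 3.08 on the irradiated 1-week arrays, against 2.98, 3.56 and 3.01 on the unirradiated 1-week arrays. The unirradiated 8-week arrays stood alone at the bottom, the 1-week groups overlapped, and the difference was 2.80 ± 0.22 (adjusted p = 5.3e-07). Fstl1, a secreted follistatin relative, rose by 2.85 at 8 weeks and rose by 0.35 at 1 week, a difference of 2.51 ± 0.16 (adjusted p = 1.5e-07). Tnc, the matrix protein tenascin C, rose by 2.75 at 8 weeks and differed by 0.12 without passing the test at 1 week, and Pdgfrb, the growth factor receptor of pericytes, rose by 1.48 at 8 weeks and differed by -0.24 without passing the test at 1 week. Foxc1, a transcription factor of the Cxcl12-rich reticular cells, rose by 2.24 at 8 weeks and differed by 0.04 without passing the test at 1 week, a difference of 2.20 ± 0.24 (adjusted p = 6.4e-06). Fkbp10, a collagen-folding isomerase, differed by 2.66, Islr, a marker of mesenchymal cells, by 2.71, and the elastic-fibre proteins Mfap2 and Efemp2 by 2.66 and 2.59. Col16a1, a fibril-associated collagen, had -0.15, -0.29 and -0.18 on the irradiated 1-week arrays, against 0.26, 2.42 and -0.16 on the unirradiated 1-week arrays, so its difference of 2.86 ± 0.59 (adjusted p = 0.0011) was 2.07 without the second unirradiated 1-week array.

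Of 28 secreted BMP, activin and Wnt modulators, 14 were higher and 1 lower, and of the 18 members above background on all 12 arrays 9 were higher. Sfrp1, a decoy that binds Wnt proteins, had 0.26, 0.10 and -0.34 on the irradiated 8-week arrays, against -3.07, -3.0 and -3.67 on the unirradiated 8-week arrays, and 0.20, -0.07 and 0.22 on the irradiated 1-week arrays, against -0.39, -0.57 and -0.50 on the unirradiated 1-week arrays. The groups were separate at both ages, the unirradiated 8-week level was the lowest, and the difference was 2.65 ± 0.27 (adjusted p = 3.2e-06). The other probe of Sfrp1, above background on no array, gave -0.335, and the difference was 1.16 at the lowest over the alternatives. Chrdl1, an antagonist of BMP ligands, rose by 2.74 at 8 weeks and differed by -0.09 without passing the test at 1 week, and its other 2 probes gave 1.55 and, above background on no array, 0.01. Inhba, a subunit of activin A, was the lower one and differed by 0.08 without passing the test at 8 weeks and rose by 1.30 at 1 week. Of 16 genes responsive to TGF-beta and YAP, 4 were higher and 2 lower, with Ccn2 at 1.71 and Ltbp2 at 1.56. In all 37.5% of that list differed, against 42.1% of all tested genes. Skil, a repressor of Smad signalling, differed by -0.64, a call lost when probes were averaged.

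Osteoblast and bone matrix genes gave 10 higher and none lower of 21, with 15 rising at 8 weeks and 2 at 1 week. Without the second unirradiated 1-week array 4 rose at 1 week. Of the 12 members above background on all 12 arrays 8 were higher. Unirradiated 8-week marrow differed from unirradiated 1-week marrow by a median of -2.61 over this list. Pth1r, the parathyroid hormone receptor of osteoblasts, had -0.22, -0.67 and -0.48 on the irradiated 8-week arrays, against -2.95, -3.01 and -2.53 on the unirradiated 8-week arrays, and 0.26, 0.14 and 0.38 on the irradiated 1-week arrays, against 0.48, 1.49 and 0.21 on the unirradiated 1-week arrays. The difference was 2.84 ± 0.42 (adjusted p = 9e-05), and 2.46 without the second unirradiated 1-week array, which was the highest of its group. Alpl, the alkaline phosphatase of mineralizing bone, rose by 1.41 at 8 weeks and differed by -0.09 without passing the test at 1 week, Ibsp, bone sialoprotein, rose by 1.89 at 8 weeks and differed by 0.44 without passing the test at 1 week, and Postn, the matrix protein periostin, rose by 1.78 at 8 weeks and differed by 0.10 without passing the test at 1 week. Of 18 osteoclast genes 4 were higher, with Ctsk, the collagen-cutting cathepsin K, at 1.19 and Mmp14 at 1.16, and 1, Car2, lower at -0.62. The Ctsk call was lost with normexp. In all 27.8% of the osteoclast list differed, against 42.1% of all tested genes.

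Endothelial genes gave 20 higher and none lower of 31, with 27 rising at 8 weeks and 6 at 1 week. Emcn, the sialomucin of sinusoidal and capillary vessels, rose by 1.30 at 8 weeks and differed by 0.32 without passing the test at 1 week. Egfl7, a secreted vascular factor, rose by 0.76 at 8 weeks and fell by 0.47 at 1 week, and Stab1, a scavenger receptor of sinusoids, rose by 1.64 at 8 weeks and differed by 0.18 without passing the test at 1 week, although the Stab1 call was lost when probes were averaged. Of 17 niche factors, 16 rose at 8 weeks and 10 at 1 week, and 10 differences were higher and none lower. Kitl, the stem cell factor that binds Kit, had -0.94, -1.10 and -1.35 on the irradiated 8-week arrays, against -2.65, -3.19 and -3.18 on the unirradiated 8-week arrays, and -1.38, -1.49 and -1.44 on the irradiated 1-week arrays, against -1.80, -2.0 and -1.62 on the unirradiated 1-week arrays. Both ages were separate, the difference was 1.50 ± 0.22 (adjusted p = 9.1e-05), and the call was lost when probes were averaged. Il7, the growth factor of B-cell precursors, was not well above background in unirradiated marrow. It was at least 2.09-fold higher after irradiation at 8 weeks and at least 1.22-fold higher at 1 week. Igf1 rose by 1.95 at 8 weeks and rose by 0.98 at 1 week.

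Genes typical of fetal and neonatal growth gave 11 higher and none lower of 17, with 6 rising at 8 weeks and 6 falling at 1 week, and 7 were higher when probes were averaged. The mean of this list was 0.94 on the second unirradiated 1-week array, against -0.09 and -0.21 on its fellows, and without that array 12 were higher and 6 fell at 1 week. Here too of the 10 members above background on all 12 arrays 7 were higher. Mest, an imprinted gene of mesoderm, had 1.04, 1.05 and 0.68 on the irradiated 8-week arrays, against -1.25, -1.29 and -1.33 on the unirradiated 8-week arrays, and 1.95, 1.75 and 1.99 on the irradiated 1-week arrays, against 1.61, 2.39 and 1.56 on the unirradiated 1-week arrays. The unirradiated 8-week arrays were the lowest, the 1-week groups overlapped, and the difference was 2.18 ± 0.25 (adjusted p = 8.8e-06). Afp, alpha-fetoprotein, rose by 2.15 at 8 weeks and rose by 0.52 at 1 week, and Grb10, an imprinted adaptor that restrains insulin signalling, rose by 0.70 at 8 weeks and fell by 0.71 at 1 week, with the Grb10 call lost when probes were averaged.

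Transcripts of cartilage and muscle moved with the second unirradiated 1-week array. The mean level of 10 tested cartilage genes was -3.08 to -2.37 on irradiated and -3.74 to -3.52 on unirradiated 8-week arrays, and -1.84 to -0.79 on irradiated and -1.88 to 3.22 on unirradiated 1-week arrays, the highest being that array. For 23 muscle genes the ranges were -3.08 to -2.16 on irradiated and -3.26 to -0.58 on unirradiated 8-week arrays, and -1.40 to 0.24 on irradiated and -1.25 to 4.62 on unirradiated 1-week arrays. No muscle gene passed, and 2 cartilage genes were higher and 1 lower. The higher cartilage count was 7 without the first unirradiated 1-week array, 4 without the third unirradiated 1-week array and 1 without the second irradiated 8-week array. The higher muscle count was 3 without the first unirradiated 1-week array and 1 without the second or the third unirradiated 1-week array, and 2 muscle genes were lower without the second. Sox9, the transcription factor of cartilage, had -3.35, -2.66 and -3.37 on the irradiated 1-week arrays, against -3.73, -0.13 and -2.78 on the unirradiated 1-week arrays. At 8 weeks it was well above background on 1 of 6 arrays, so its fitted difference of 3.40 ± 1.13 (adjusted p = 0.024) is no measured size, and its call was lost without the second irradiated 8-week or the second unirradiated 1-week array (adjusted p = 0.057 to 0.066). Actn3, an actinin of fast muscle, had 3.21 on that array, against -3.15 and -2.70 on the other unirradiated 1-week arrays, and did not pass at 2.85. The part of bone and muscle fragments in the stromal results was not tested, beyond the count without that array given above.

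**Figure D4:**
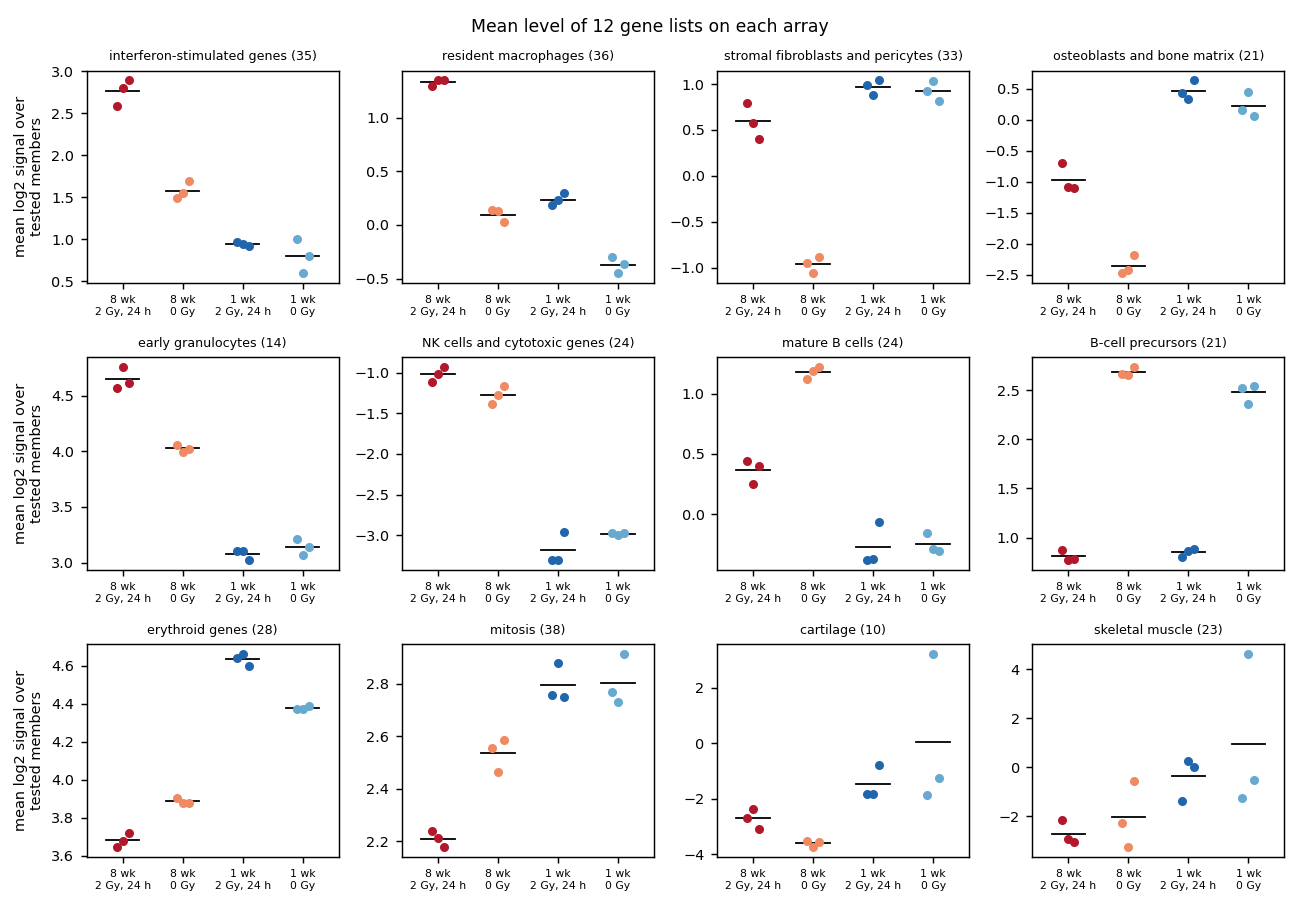
Each panel gives the mean log2 level of 1 gene list on each of the 12 arrays, with groups on the x axis, arrays as points and group means as bars. The stromal and osteoblast panels are lowest in unirradiated 8-week marrow, and 1 unirradiated 1-week array stands high in the cartilage and muscle panels.

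Among megakaryocyte and platelet genes 20 of 24 rose at 8 weeks and 5 at 1 week, and 10 differences were higher and none lower (41.7%, against 42.1% of all tested genes, of which 28.5% were higher). That count was unsteady, at 3 to 16 when 1 array was left out (16 without the second unirradiated 1-week array) and 5 on the median scale. Gp5, a platelet receptor subunit for von Willebrand factor, rose by 1.01 at 8 weeks and differed by -0.04 without passing the test at 1 week, and Treml1, a receptor of platelet granules, rose by 0.82 at 8 weeks and differed by -0.43 without passing the test at 1 week. Itga2b, the platelet integrin, rose by 0.93 at 8 weeks and differed by 0.08 without passing the test at 1 week. The call on its difference was lost without the third irradiated 8-week, the third irradiated 1-week or the first unirradiated 1-week array (adjusted p = 0.052 to 0.058). It was also lost under normexp, and the highest adjusted p over all alternatives was 0.088. Gng11, a G-protein subunit of megakaryocytes, rose by 1.21 at 8 weeks and rose by 0.31 at 1 week. Adipocyte and lipid-uptake genes gave 8 higher and 3 lower of 20. Car3, an adipocyte carbonic anhydrase, rose by 2.24 at 8 weeks and differed by -0.37 without passing the test at 1 week. Its difference of 2.61 ± 0.82 (adjusted p = 0.018) was 1.49 without the second unirradiated 1-week array, when it rose by 0.75 at 1 week, and the call was lost with slide as a block. Adipoq, adiponectin, rose by 1.0 at 8 weeks and differed by -0.36 without passing the test at 1 week, and Lpl, lipoprotein lipase, rose by 2.09 at 8 weeks and rose by 0.68 at 1 week, whereas Scd1, a fatty acid desaturase, fell by 0.70 at 8 weeks and differed by 0.29 without passing the test at 1 week.

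Cholesterol synthesis genes fell at 1 week. Of 22 tested, 15 fell and 1 rose at 1 week, 6 rose and 4 fell at 8 weeks, and 13 differences were higher and 1 lower. Fdps, the synthase of farnesyl pyrophosphate, had 1.86, 2.13 and 1.86 on the irradiated 8-week arrays, against 1.66, 1.61 and 1.64 on the unirradiated 8-week arrays, and 1.66, 1.47 and 1.51 on the irradiated 1-week arrays, against 1.99, 2.18 and 2.15 on the unirradiated 1-week arrays. The groups were separate and moved in opposite directions, a difference of 0.88 ± 0.11 (adjusted p = 1.5e-05). Dhcr7 differed by -0.06 without passing the test at 8 weeks and fell by 0.73 at 1 week. Heat shock genes gave 14 higher and 1 lower of 22, and 8 higher on the median scale. The mean of this list was 3.11 on the second unirradiated 1-week array, against 2.5 and 2.56 on its fellows, and 12 were higher without that array. Hspa1a, the inducible Hsp70, had 7.69, 8.0 and 8.31 on the irradiated 8-week arrays, against 7.50, 7.37 and 7.40 on the unirradiated 8-week arrays, and 3.82, 3.46 and 3.69 on the irradiated 1-week arrays, against 4.10, 4.67 and 3.78 on the unirradiated 1-week arrays. Its level differed far more between the ages than with irradiation, and the difference in response was 1.11 ± 0.26 (adjusted p = 0.0026). The chaperonins Hspd1 and Hspe1 differed by 0.76 and 0.69.

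Of 24 immediate early genes, 10 were higher and 4 lower, the lower count being 1 to 4 when 1 array was left out. Fos, a subunit of AP-1, had 0.93, 1.66 and 0.39 on the irradiated 8-week arrays, against -1.82, -2.02 and -1.86 on the unirradiated 8-week arrays, and -1.26, -1.01 and -1.82 on the irradiated 1-week arrays, against -2.53, -1.71 and -2.13 on the unirradiated 1-week arrays. The irradiated 8-week arrays spread over 1 log2 unit or more but lay above all others, a difference of 2.13 ± 0.37 (adjusted p = 0.00033). Junb, its partner, rose by 1.39 at 8 weeks and rose by 0.31 at 1 week, Maff, a small Maf factor, rose by 2.20 at 8 weeks and rose by 0.73 at 1 week, and Nr4a1, a nuclear receptor of activated cells, differed by -0.10 without passing the test at 8 weeks and rose by 0.45 at 1 week. Respiratory chain and cytosolic ribosomal protein genes had small differences, 19 of 30 and 14 of 33 higher and none lower (63.3% and 42.4%, against 42.1% of all tested genes), with medians of 0.29 and 0.21. On the median scale 12 and 3 were higher, and the ribosomal count was 8 without the first or the second unirradiated 8-week or the second unirradiated 1-week array and 6 without the second irradiated 8-week or the third irradiated 1-week array, so no direction is given for it. Uqcrc1, a subunit of complex III, differed by 0.64, and Rpl10a, a large-subunit protein, by 0.47.

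**Figure D5:**
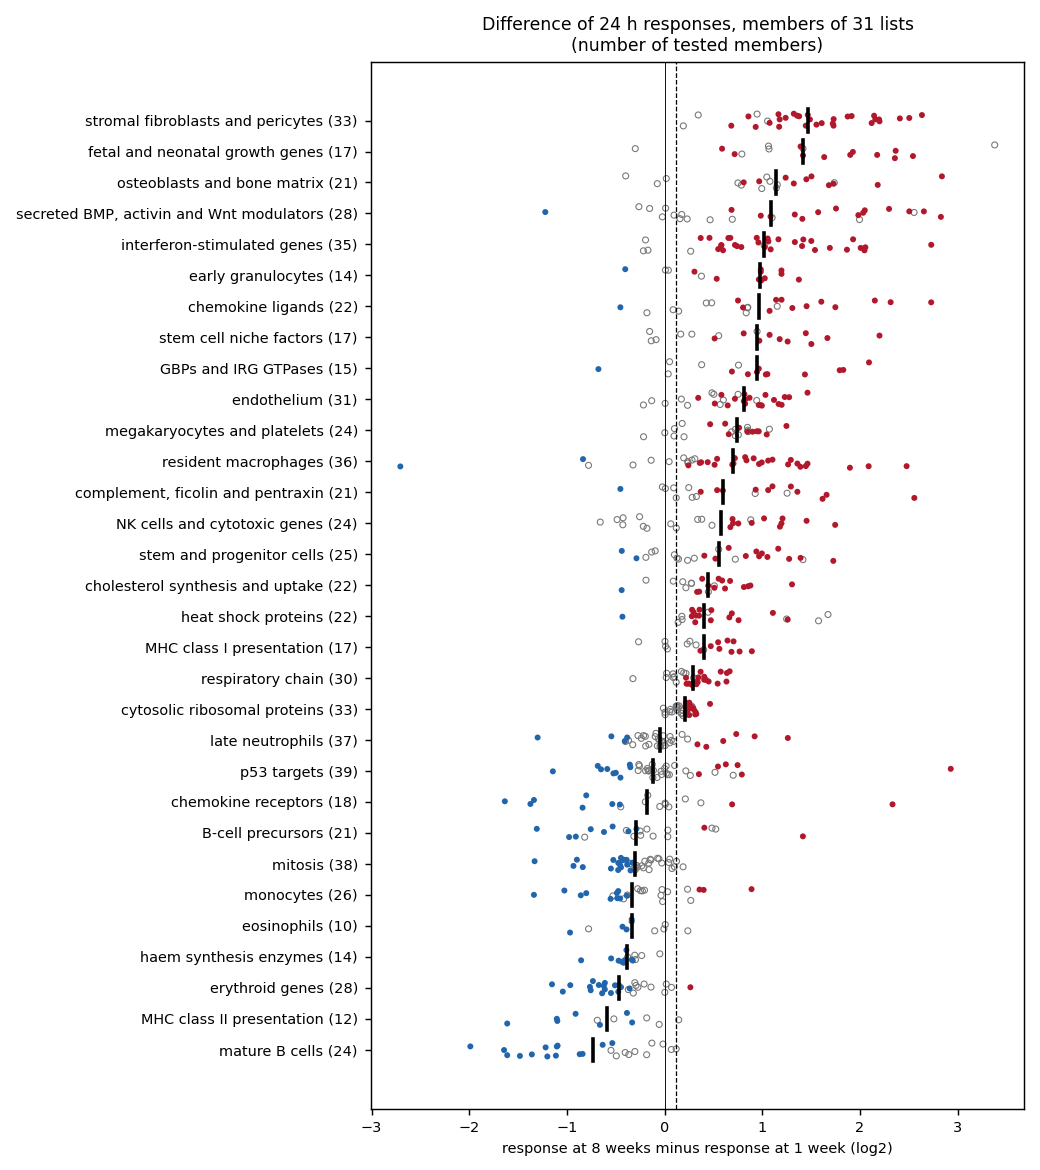
Rows are 31 gene lists ordered by their median, and points are the members' age differences in response in log2 units. Filled red points passed the test higher, filled blue points lower, and open grey points did not pass. The black bar is the list's median and the dashed line the median of all tested genes at 0.11. Stromal, bone, interferon and chemokine lists lie to the right and mature B-cell and class II lists to the left.

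Several further genes had some of the lowest differences. Ppm1e, a phosphatase of signalling kinases, had -1.37, -1.73 and -1.43 on the irradiated 8-week arrays, against 0.61, 0.54 and 0.81 on the unirradiated 8-week arrays, and -0.35, -0.40 and -0.56 on the irradiated 1-week arrays, against -0.56, -0.75 and -0.61 on the unirradiated 1-week arrays. The 8-week groups were far apart and the 1-week groups overlapped, a difference of -2.36 ± 0.15 (adjusted p = 1.5e-07). Cd209d, a C-type lectin, fell by 1.02 at 8 weeks and rose by 1.23 at 1 week, a difference of -2.26 ± 0.17 (adjusted p = 3e-07), with no overlap at either age. Xist, the RNA that silences 1 X chromosome in female cells, had -1.10, -1.56 and -1.24 on the irradiated 8-week arrays, against 0.29, 0.15 and 0.23 on the unirradiated 8-week arrays, and 0.01, 0.08 and -0.35 on the irradiated 1-week arrays, against 0.24, -0.35 and -0.18 on the unirradiated 1-week arrays, a difference of -1.53 ± 0.22 (adjusted p = 5.6e-05). Reln, a secreted glycoprotein, fell by 1.76 at 8 weeks and differed by -0.23 without passing the test at 1 week, and Prkce, a protein kinase C isoform, fell by 1.86 at 8 weeks and differed by -0.21 without passing the test at 1 week, with the Prkce call lost when probes were averaged. Dmxl1 fell by 1.32 at 8 weeks and differed by 0.22 without passing the test at 1 week, Whrn, a scaffold protein, fell by 1.49 at 8 weeks and differed by -0.02 without passing the test at 1 week, and Aph1c, a subunit of gamma-secretase, fell by 0.55 at 8 weeks and rose by 0.97 at 1 week. Nrip3 fell by 0.61 at 8 weeks and rose by 0.91 at 1 week. Among the highest, Ak1, an adenylate kinase, rose by 2.97 at 8 weeks and differed by 0.22 without passing the test at 1 week. Its difference of 2.75 ± 0.77 (adjusted p = 0.0093) was 1.66 without the second unirradiated 1-week array, when it rose by 1.31 at 1 week. Efs, an adaptor of Src kinases, rose by 2.37 at 8 weeks and differed by -0.21 without passing the test at 1 week.

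Genes that were dim in at least 1 group had some of the widest fitted differences. Values given as a fold are lower bounds within an age, and the other values are fitted ones and not bounds. At 8 weeks, irradiated over unirradiated marrow was at least 2.86-fold higher for Ecrg4, 2.41-fold for Bmper, a regulator of BMP signalling, and 2.13-fold for Srpx. It was at least 7.63-fold higher for Nol3, an inhibitor of apoptosis, and 3.62-fold for Flvcr2, a transporter of the haem exporter family. The other probe of Bmper, above background on 1 of 12 arrays, gave a difference of -0.91 against the fitted 4.14. The Bmper call was lost when probes were averaged. The fitted differences of Ecrg4 and Nol3, 4.69 and 3.62, were 2.49 and 2.22 without the second unirradiated 1-week array, and the Ecrg4 call was lost without the first or the second or the third irradiated 8-week, the second or the third unirradiated 8-week or the first or the second or the third irradiated 1-week array (adjusted p = 0.054 to 0.077). Dnase1, the secreted nuclease, was at least 1.71-fold lower in irradiated 8-week marrow. Ido1, which degrades tryptophan and is induced by interferon gamma, differed by 0.06 without passing the test at 8 weeks and was at least 1.42-fold higher in irradiated 1-week marrow, against the direction of the interferon list. Adam33 fell by 0.48 at 8 weeks and rose by 1.87 at 1 week, and Chst10 fell by 0.44 at 8 weeks and rose by 1.77 at 1 week. These are fitted responses. The differences of Adam33 and Chst10, -2.35 and -2.21, shrank to -1.07 and -1.19 at the smallest over the alternatives.

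At 6 h, measured against the same unirradiated arrays, 2210 genes (18.6%) had a response that differed between the ages, 1248 (10.5%) higher and 962 (8.09%) lower. The median differences of the lists at 6 h were 1.09 for stromal, 0.86 for macrophage and 0.41 for interferon-stimulated genes, beside 1.47, 0.70 and 1.02 at 24 h. Because both times share their controls, the values are set side by side and no relation between them is given. Serpinh1 differed by 1.38 at 6 h, Ccl2 by 0.93, Ifit3 by 1.60, Mpo by 0.30 and Ms4a1 by -0.68.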

How the data were processed

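Total RNA of bone marrow was hybridized to Agilent mouse 4x44K one-colour (Cy3) arrays, 1 sample an array, and the series design gives 3 mice per time point. Per the file headers, the deposited intensity values are processed signals of Feature Extraction 9.5.1.1, background-subtracted and spatially detrended, while the submitters' processing notes name version 11.5.1. The authors' deposited log2 table held the same signals, shifted per array and centred per probe, and served as an alternative. The other deposited columns were flags (0 or 1) per spot.

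Signals were averaged over spots of a probe without outlier flags, scaled to each array's 75th percentile over 41174 probes and taken as log2. Accessions matched to RefSeq named 24844 probes. The probe with the highest mean signal stood for each of 17178 genes, and 11884 genes were tested, those that some group of the 6 measured well above background on each of its 3 arrays. limma 3.58.1 in R 4.3.3 fitted 6 group means to all 18 arrays with an intensity trend (12 residual and 4.33 prior degrees of freedom). Where a group was not well above background, a fold is a lower bound: the brighter group's mean against, on each array, the higher of the dim probe's own value and the lowest signal among probes well above background. The fit was checked on simulated data.

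Named genes were the 15 highest and 15 lowest differences among genes bright on all 12 arrays, the 6 highest and 6 lowest among the rest, the 8 largest in opposite directions, up to 4 of each list by adjusted p, the chemokine ligands that passed and a fixed set of markers. Some genes that meet this rule are not reported here. Zmat3, Irf7, Isg15, Isg20, Rsad2, Slfn5, Sp100, Gvin1, Ccr2, Cxcr5, Cd36, Cd59a, Myb, Igsf6 and Bcl11a, and the promoters shown, were chosen after their values were seen. The members and lists were chosen with earlier results of these data known. The numbers of the replicates did not pair the samples: 18 same-numbered pairs correlated at -0.249 to 0.319 and 2 exceeded 0.1. Samples of a group come from separate labels, not stated to be separate mice for each array, so p-values measure the spread between these arrays, and 3 arrays a group limit the precision. Arrays lay on 5 slides, none with all 4 groups. Within the slides that hold both groups of an age (1 slide at 8 weeks, 2 at 1 week), 4997 of the 5001 differences kept their sign. The arrays on these slides also gave the calls, and only called genes were counted. That agreement was therefore largely built in and does not exclude an effect of slide. Alternatives covered scaling, background, dim-probe filter, probe choice, slide and replicate blocks, the trend, the arrays in the fit and leaving out each array.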

Additional observations from a re-analysis of the deposited data

Results flagged for a closer look

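The response to 2 Gy at 24 h differed between 8-week and 1-week marrow for 5001 genes by the test of the difference itself. Of those that passed at both ages in opposite directions, the 8 with the largest differences are given here. Galnt16, a glycosyltransferase, differed by 3.59 ± 0.52 (adjusted p = 6.4e-05), with responses of 2.44 at 8 weeks and -1.15 at 1 week. Sobp differed by 3.44 ± 0.57 (adjusted p = 0.00023), Fign, a microtubule-severing protein, by 2.74 ± 0.32 (adjusted p = 9.8e-06), and Col26a1, a collagen, by 2.68 ± 0.40 (adjusted p = 9.1e-05). Slc15a2, a peptide transporter, differed by 2.59 ± 0.35 (adjusted p = 3.4e-05), and Cbln1, a secreted synapse organizer, by 2.59 ± 0.35 (adjusted p = 3.9e-05). Of the lower ones, Cd209b, a lectin of marginal-zone macrophages, differed by -2.71 ± 0.50 (adjusted p = 0.00051) and lost its call when probes were averaged. Mageb16, a member of the MAGE family, differed by -2.66 ± 0.34 (adjusted p = 2.1e-05) and its other probe gave -1.80. Galnt16, Fign, Cd209b, Col26a1 and Slc15a2 were not well above background in at least 1 group, Col26a1 in both 8-week groups and Slc15a2 in both 1-week groups, so their fitted sizes are no bounds.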

How the results depend on the processing

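The number of genes with differing responses stayed within 4176 (normexp background) and 5273 (only the 12 arrays in the fit) over 25 alternatives, and between 4308 and 4844 when 1 array was left out. The same ranges were 6142 to 6964 for genes changed at 8 weeks and 3320 to 4178 for those changed at 1 week when 1 array was left out. Slide as a block gave 4565 calls, quantile scaling 4818, the authors' deposited values 4994, and the replicate block, although the numbers do not pair the samples, 4912. The share of higher calls was 67.8% in the main fit, 61.1% with quantile scaling, 59.6% with the 75th percentile of probes above background and 53.3% with the median as the scale, an alternative chosen after seeing the data. With the median scale and without the second unirradiated 1-week array, also chosen afterwards, 4388 genes differed. Differences of at least 2-fold numbered 910, but 411 with normexp and 561 among 10555 genes above background on all 12 arrays. Normexp used the median spot signal, since the mean signal is not used here, with 11 spots of bright local background on the third irradiated 8-week array set to the array's median.

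Of 217 genes followed, 176 kept their direction and side of the threshold under all alternatives, 32 lost a call under at least 1 and 7 gained one. The replicate block changed none of their calls. Isg15, which did not pass, was -0.15 with slide as a block and ranged from -0.004 to 0.57 when 1 array was left out. Ccnb1, which did not pass either, ranged from -0.17 to 0.002 in the same way and was -0.27 at the lowest over all alternatives. The cause was not tested. Averaging the probes of a gene lost 18 of these calls, more than any other alternative. With normexp, 39 of the 206 that passed had a difference over 1.5 times smaller and 9 lost their call. Signal over background limits the dim genes, whose fitted differences are not bounds. Gdf15, Ccl4, Ccl19, Gzmb, Slfn5, Sobp and Actn3 are among the genes not well above background on all 12 arrays. The values given for these genes are fitted ones, and only folds written as at least a value are bounds.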

Other observations

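Lymphoid and inflammatory genes outside the lists above gave mixed differences. Plasma cell genes gave 4 higher and 2 lower of 11 (54.5%, against 42.1% of all tested genes). Mzb1, a chaperone of immunoglobulin assembly, fell by 0.55 at 8 weeks and fell by 1.68 at 1 week, a difference of 1.13 ± 0.10 (adjusted p = 1.3e-06). Jchain, which joins IgM and IgA units, rose by 1.0 at 8 weeks and rose by 1.58 at 1 week, and Fkbp11, an isomerase of secretory cells, rose by 1.39 at 8 weeks and differed by 0.25 without passing the test at 1 week. The Jchain call was lost with normexp and with slide as a block. T-cell genes gave 3 higher and 1 lower of 18 (22.2%, against 42.1% of all tested genes). The higher ones were Thy1 at 0.68, Lat at 0.71 and Gata3 at 0.71, and the lower one was Il2ra, the interleukin-2 receptor chain CD25. Il2ra was not well above background after irradiation at 8 weeks, at least 1.98-fold lower than in unirradiated 8-week marrow, nor on any 1-week array. The Il2ra call was lost with slide as a block and when probes were averaged. Cd3e, a chain of the T-cell receptor complex, differed by -0.86 and did not pass. Inflammatory cytokines and receptors gave 7 higher and 2 lower of 24 (37.5%), the higher count being 4 without the first unirradiated 1-week array. Il18, activated by the inflammasome, rose by 1.32 at 8 weeks and rose by 0.62 at 1 week, and the interleukin-1 receptor Il1r1 fell by 0.52 at 8 weeks and differed by 0.13 without passing the test at 1 week. Toll-like receptor genes gave 3 higher and 1 lower of 12 (33.3%), with Tlr2, which senses bacterial lipoproteins, at 0.57. NF-kB subunits and feedback genes gave 4 higher and 2 lower of 15 (40%), the higher count being 2 without the first unirradiated 8-week array and 1 without the first unirradiated 1-week array. Mast cell and basophil genes gave 3 higher and 1 lower of 14 (28.6%), with Hdc, which makes histamine, at 0.71. The higher count was 5 without the second unirradiated 1-week array and 1 without the second irradiated 8-week, the third unirradiated 8-week, the second irradiated 1-week or the first unirradiated 1-week array.

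DNA repair genes gave 9 higher and 6 lower of 41 (36.6%, against 42.1% of all tested genes), and 5 higher and 11 lower on the median scale, so no direction is given for the list. Apex1, the endonuclease of base excision repair, rose by 0.52 at 8 weeks and fell by 0.50 at 1 week, a difference of 1.02 ± 0.10 (adjusted p = 2.8e-06). The end-joining genes were divided, as Poll, a DNA polymerase, rose by 0.45 at 8 weeks and fell by 0.36 at 1 week, whereas its relative Polm fell by 1.44 at 8 weeks and fell by 0.34 at 1 week and the ligase Lig4 fell by 1.80 at 8 weeks and fell by 0.96 at 1 week. Glucocorticoid-induced and metallothionein genes gave 4 higher and 4 lower of 14. Fkbp5, a chaperone of the glucocorticoid receptor, fell by 1.28 at 8 weeks and differed by 0.09 without passing the test at 1 week, but its other 2 probes gave -0.25 and -0.15. The metallothioneins Mt1 and Mt2 differed by 0.91 and 0.79. Clock genes gave 1 higher and 2 lower of 14 (21.4%), with Per1 at -0.79 and Dbp at -0.46, and the Per1 call was lost without the first unirradiated 8-week array (adjusted p = 0.058). The hour of sampling is not given in the sources used here. Nrf2-controlled antioxidant genes gave 10 higher and 5 lower of 22 (6 without the third irradiated 8-week array, and 3 lower without the first irradiated 8-week array), with Prdx1, a peroxiredoxin, at 0.61, and Gclc and Cat, for glutathione synthesis and peroxide removal, at -0.72 and -0.75.

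Probes whose accession matched no RefSeq symbol showed the opposite split to the named genes. Of 6317 such probes tested, 2825 (44.7%) differed, 701 higher and 2124 lower at 8 weeks.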
